A study of Mus musculus with 8 samples.

Results

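Unstimulated dendritic cells (DC) that lacked the microRNA miR-155 were compared with wild-type (WT) DC that had been cultured and sorted in the same way. The comparison rests on 4 of the 8 arrays of the study, 2 of miR-155 knockout (KO) and 2 of WT cells, chosen by their sample titles. Bone marrow of male C57BL/6Jax mice was grown for 7 days with GM-CSF at 40 ng/mL, a growth factor that turns marrow precursors into DC and related myeloid cells. All 4 groups of the study share this strain, sex and culture and differ in genotype, WT or miR-155 KO, and in treatment. Stimulated cells, which make up the other 4 arrays, received lipopolysaccharide (LPS, a bacterial cell wall component) at 100 ng/mL for 16 h. DC were then sorted by flow cytometry, and unstimulated DC were taken from the fraction negative for CD86, a co-stimulatory surface protein that marks mature DC, whereas stimulated DC were CD86-positive. Unstimulated DC are therefore a gated, immature part of each culture. The labels do not say whether replicate arrays came from separate mice or cultures, so errors and p-values measure the spread between these arrays only. How the KO line was made and bred is not given in the sources used here.

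miR-155 is a short regulatory RNA that is cut from the transcript of the Mir155 host gene and that lowers the output of messenger RNAs which pair with its seed. It is induced in DC and macrophages by microbial signals and by interferons and is known to act on inhibitors of cytokine signalling and on myeloid transcription factors. Interferon-stimulated genes are the antiviral genes that type I interferon switches on through the receptor chains Ifnar1 and Ifnar2 and transcription factors that bind a short element close to their start sites. Resting DC keep part of this programme on at a low level through a small constant supply of interferon.

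The sequences below show the miRNA that the KO cells lack and the element upstream of 5 interferon-stimulated genes that are described further on. The mature strand is given 5' to 3' with the seed (bases 2 to 8) in capitals. The 5 upstream stretches lie in the 250 bases before the start of the gene and have in capitals each match to GAAA, any 2 bases and GAAA again, a simple form of the interferon-stimulated response element, read on either strand. All 6 come from RefSeq (mouse build GRCm38.p6), the miRNA from chr16:84714143-84714165 on the plus strand.
miR-155-5p: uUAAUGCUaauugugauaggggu
Ifit1, chr19:34640745-34640853, plus strand: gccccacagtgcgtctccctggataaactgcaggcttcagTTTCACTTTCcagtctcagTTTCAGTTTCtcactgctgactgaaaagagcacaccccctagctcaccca
Ifit3, chr19:34583333-34583456, plus strand: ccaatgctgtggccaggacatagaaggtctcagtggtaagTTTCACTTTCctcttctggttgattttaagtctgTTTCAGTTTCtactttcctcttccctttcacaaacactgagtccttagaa
Rsad2, chr12:26456523-26456612, minus strand: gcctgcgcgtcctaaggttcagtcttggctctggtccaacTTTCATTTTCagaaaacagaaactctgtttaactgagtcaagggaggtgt
Isg15, chr4:156200835-156200936, minus strand: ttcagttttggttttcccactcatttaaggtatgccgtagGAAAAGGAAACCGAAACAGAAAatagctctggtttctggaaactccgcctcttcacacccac
Oas1a, chr5:120907526-120907585, minus strand: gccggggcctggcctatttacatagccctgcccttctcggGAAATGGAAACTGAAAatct
Ifit1 and Ifit3 hold 2 separate matches, Rsad2 holds 1, and the 3 matches of Isg15 and the 2 of Oas1a overlap. The first match begins 104 bases before the start in Ifit1, 156 in Ifit3, 120 in Rsad2, 78 in Isg15 and 20 in Oas1a.

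Signals are given as log2 of the processed Cy3 signal minus the 75th percentile of the same array, so 0 is the level of a fairly bright probe, and a difference is KO minus WT with its standard error (SE) from limma. Precision is limited by having 2 arrays in a group. On the 4 unstimulated arrays the 75th percentile lay between 451 and 702 signal units, 50.8% to 57.6% of non-control spots were well above background, and no spot was saturated. Of 41174 probes, 48.1% were well above background on both WT arrays and 53.5% on both KO arrays. Probes below background read lower on the KO arrays: over the 506 genes detected on none of the 4 arrays, the medians were -6.58 and -6.28 on the WT arrays and -6.70 and -6.86 on the KO arrays, and the median difference was -0.56, against -0.06 over the 12861 genes detected on all 4. Differences between signals below background on all 4 arrays are therefore shifted towards lower values in KO cells. Over the 2059 genes detected on 1 to 3 of the 4 arrays the median difference was 0.29, so the shift did not hold for all dim genes. Both WT arrays lay on slide 1 with KO replicate 2, and KO replicate 1 lay on slide 2, so slide and genotype are partly mixed, and values within slide 1 are given beside the main results.

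The sorted cells carried DC markers in both genotypes. Itgax, which encodes CD11c, read 7.99 and 6.90 on the WT arrays and 8.01 and 7.01 on the KO arrays. H2-Ab1, an MHC class II chain, read 8.32 and 9.11 in WT and 8.62 and 8.87 in KO cells. None of 20 measured DC markers was called and the summed linear signal of the list, relative to the 75th percentile, was 1310 to 1620 in WT and 1430 to 1570 in KO cells. Cd86, the gate of the sort, differed by 0.08. The deletion itself could not be checked, because no probe on the array is named for Mir155 or its host transcript. The nearest gene with a probe is Mrpl39, a mitochondrial ribosomal protein (mm9 chr16:84718622-84724086, the next annotated gene after Mir155), and it read 2.53 and 2.10 in WT and 2.49 and 2.08 in KO cells. These arrays overlap, and they say nothing on the deleted sequence.

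In unstimulated cells 52 of 15422 tested genes (0.337%) were called at an adjusted p under 0.05 (limma with Benjamini-Hochberg adjustment), 3 higher (0.0195%) and 49 lower (0.318%) in KO cells. The median over all genes was -0.04. At an unadjusted p under 0.05, 153 genes were higher (0.992%) and 258 lower (1.67%), 2.67% in all. Both KO arrays lay below both WT arrays for 12.8% of genes and above them for 8.13%. Most of the 49 lower calls were not typical gene signals. In 46 of them the spot was uneven (a pixel standard deviation over 0.3 of its mean) or lay among dim spots of which at least 25% of the nearest 12 were well above background, on at least 1 unstimulated array. Such spots made up 93.9% of the lower calls and 11.8% of all genes. Of the 46, 35 had uneven spots on both WT arrays, and the median ratio of pixel spread to signal was 0.415 on the WT arrays against 0.240 on the KO arrays. The 46 spanned rows 75 to 211 of the 532 rows of the array, limits taken from these spots themselves. That band holds 26.9% of all genes, and 43 of the 46 were well above background on neither KO array. Their differences ran from -6.24 to -2.97, and their median difference after LPS was -0.15.

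**Figure D1:**
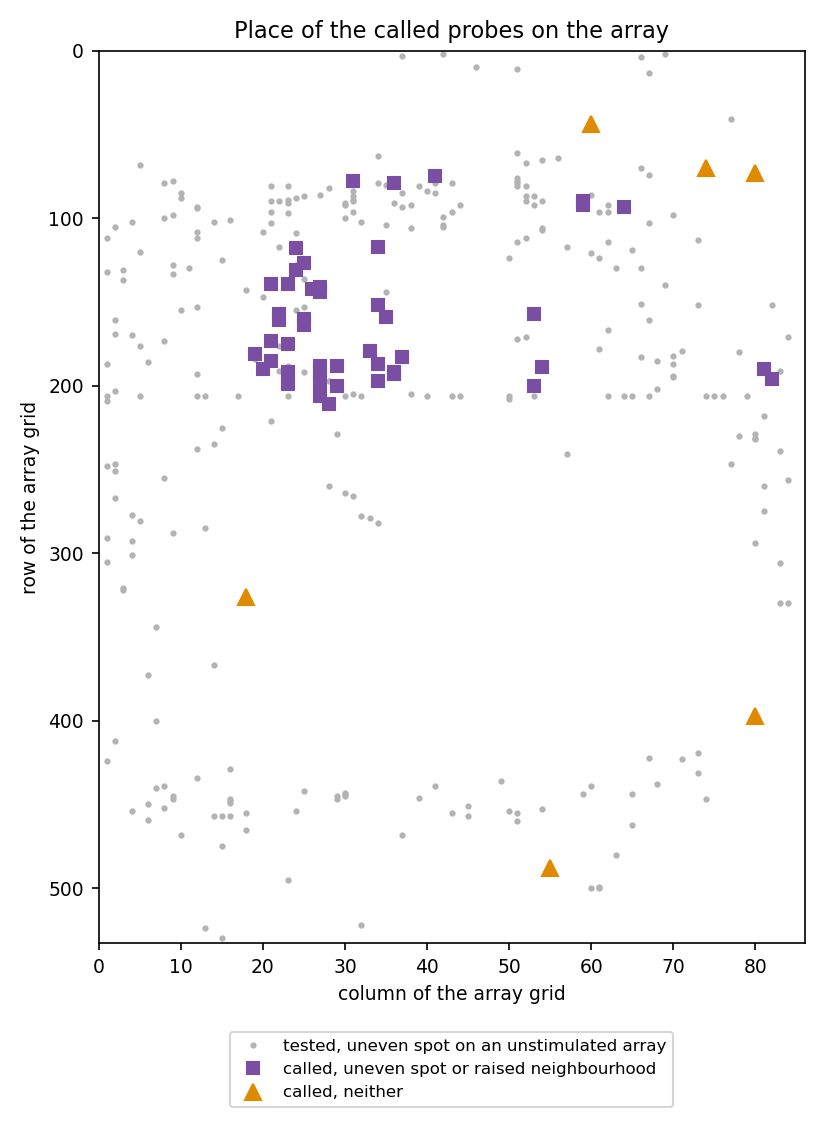
Place on the array of the genes called in unstimulated KO against WT cells. The vertical axis is the grid row (1 to 532) and the horizontal axis the grid column (1 to 85); grey points are tested genes with an uneven spot on an unstimulated array, purple squares the 46 calls with an uneven spot or a raised neighbourhood and orange triangles the other 6. The 46 squares sit between rows 75 and 211, limits that are the range of these squares themselves. None of the 6 triangles lies between them, but those of Xaf1 (row 73) and A_52_P541760 (row 70) lie close to the edge.

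Lrrc17 had the largest difference among the calls. It read -1.32 on WT replicate 2, its spot on WT replicate 1 being left out as outlying, and -7.74 and -7.37 on the KO arrays, a difference of -6.24. AK082037 (-5.92), Spag17 (-5.83), Ctsr (-5.20), 4930517O19Rik, AK076552, Mov10l1, NAP100574-001, AK048351, C530008M17Rik, AK049026, C77370, AK078585, AK089089, Zfp697 and Krt1 were lower by 4.26 or more on this scale. In 14 of the 46, outlying spots left 1 WT array for the difference, and besides Lrrc17 these include 4930517O19Rik, C530008M17Rik, AK049026, C77370, AK078585, Zfp697, ENSMUST00000103376, Ceacam12 and Speer7-ps1. Krt1 is a skin keratin and Spag17 a sperm flagellum protein, and 40 of the 46 genes were well above background in no group other than unstimulated WT. When uneven spots and raised neighbourhoods were both left out, no gene of 14085 was called by limma, and 242 passed an unadjusted p under 0.05 (1.72%). When only uneven spots were left out, 2 were called (0.0132%). The part of spot quality in these calls was not tested beyond this.

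The other 6 of the 52 calls had even spots in clean neighbourhoods on all 4 arrays, and these are Xaf1, Rtp4 and Nlrp1a, lower in KO cells, and Wdfy1, AK035714 and A_52_P541760, higher in KO cells. All kept their direction under the 21 or 22 settings in which each could be fitted, but not their call. These settings are not all separate, because the deposited values gave the same number of calls (50) as keeping outlying spots. Xaf1 was called in 16 of 22 settings, Rtp4 in 12 of 22, Nlrp1a, AK035714 and A_52_P541760 in 10 of 21 each and Wdfy1 in 7 of 22. None was called with slide as a block, within slide 1 or with uneven spots and raised neighbourhoods both left out. In that last fit the 6 differences were unchanged, but the limma adjusted p was 0.178 for Rtp4 and AK035714. It was 0.221 for Nlrp1a and A_52_P541760, 0.282 for Wdfy1 and 0.0619 for Xaf1.

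Xaf1, a pro-apoptotic binding partner of the inhibitor XIAP that interferon induces, read 0.91 and 0.99 on the WT arrays and -2.53 and -2.37 on the KO arrays. Both KO arrays lay far below both WT arrays. The difference was -3.40 ± 0.27 (SE, n = 2 arrays per group), 10.6-fold lower in KO cells, with a limma adjusted p of 0.00743. Within slide 1 it was -3.33. After LPS the WT arrays read 5.05 and 5.46 and the KO arrays 2.56 and 2.30, a difference of -2.83. Xaf1 was called when uneven spots were left out (adjusted p = 0.0345), beside 4930513O06Rik, which lay in a raised neighbourhood, and missed the threshold in the full spot screen (adjusted p = 0.0619).

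Nlrp1a, a sensor that builds an inflammasome, the complex that activates caspase-1, read -2.95 and -2.48 on the WT arrays and -7.77 and -7.27 on the KO arrays. It was well above background on both WT arrays and on neither KO array, so the difference of -4.80 ± 0.58 (limma adjusted p = 0.0309) has only a bound on its size, at least 6.42-fold lower in KO cells. That bound sets the WT mean against the mean, over the KO arrays, of the lowest signal that was well above background. Within slide 1 the difference was -4.56, and with normexp background correction it shrank to -1.13 and was not called. After LPS it was -3.58. The probe that gave these values lies at mm9 chr11:70910764-70912423 on the minus strand and reads as follows.
Nlrp1a probe: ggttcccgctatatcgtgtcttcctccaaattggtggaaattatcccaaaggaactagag
The other 15 measured inflammasome and caspase genes were not called: Casp1 differed by -0.10, Pycard, the adaptor of the complex, by -0.34, Nlrp3 by 0.41 and Il18 by -0.94. The median of the whole list was -0.22, and 0.05 within slide 1.

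Rtp4, an interferon-induced chaperone of membrane receptors that restricts viruses, read 2.77 and 2.95 in WT and 0.16 and 0.52 in KO cells. The genotypes did not overlap and differed by -2.52 ± 0.27, 5.74-fold (limma adjusted p = 0.0186). Within slide 1 the difference was -2.34. After LPS the 4 arrays came together, at 6.75 and 7.12 in WT and 7.00 and 6.83 in KO cells, and the difference was -0.02. The change of the genotype difference between the 2 states had an unadjusted p of 0.000369 and was not called over all genes.

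Wdfy1, an endosomal protein with WD repeats and a FYVE domain, read 0.53 and 0.55 in WT and 2.67 and 2.32 in KO cells, 3.88-fold higher (difference 1.95 ± 0.25, limma adjusted p = 0.0388). Within slide 1 the difference was 1.78, and after LPS it was 1.70. The gene has 3 probes that disagree: a further probe differed by 2.78 and the third by -1.23, with after-LPS differences of 2.16 and -1.14. With the mean over its probes in place of the brightest, the difference was 1.17 and was not called (limma adjusted p = 0.446).

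Both remaining higher calls are transcripts without a gene symbol in the files. AK035714 read -5.13 and -5.04 in WT, below background, and -1.52 and -2.22 in KO cells, at least 5.98-fold higher (difference 3.22 ± 0.33, limma adjusted p = 0.0162). Its difference was 2.87 within slide 1 and 2.13 after LPS, and 1.09 with normexp, where it was not called. The probe A_52_P541760 on chromosome 11 (mm9 chr11:84103786-84103844) read -5.78 and -5.63 in WT, below background, and -3.41 and -2.92 in KO cells, at least 2.43-fold higher (difference 2.55 ± 0.31, limma adjusted p = 0.0309). Its difference was 2.79 within slide 1 and 1.90 after LPS, and 0.65 with normexp, where it was not called.

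**Figure D2:**
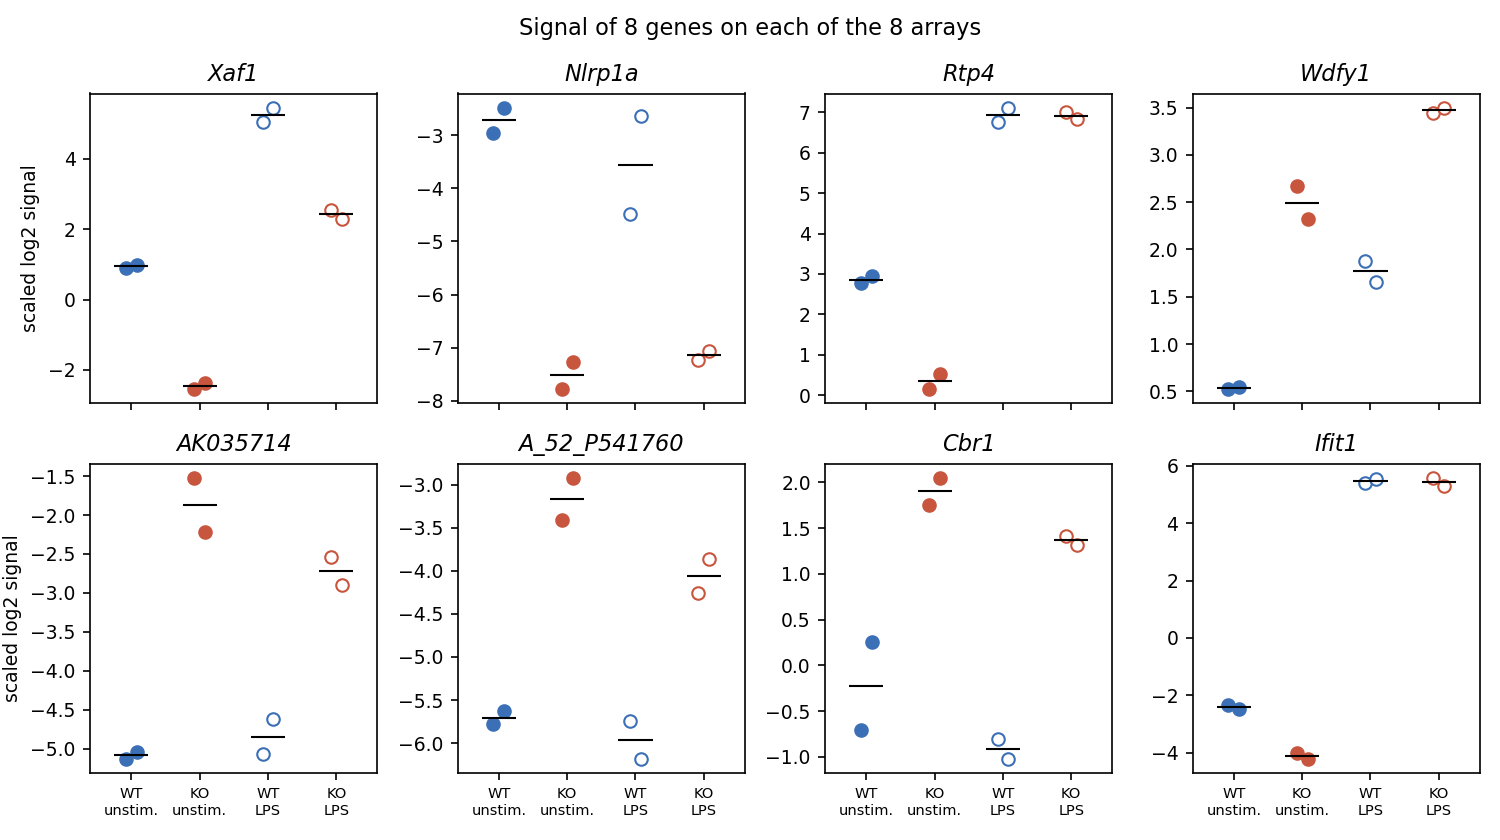
Signal of 8 genes on each of the 8 arrays. Each panel plots the scaled log2 signal (log2 processed signal minus the 75th percentile of the array) with 1 point per array, WT in blue and KO in red, unstimulated arrays filled and LPS arrays open, and a line at each group mean. Xaf1 and Nlrp1a are lower in KO cells in both states, Rtp4 and Ifit1 are lower in unstimulated KO cells and have overlapping arrays after LPS, and the other 4 panels are higher in KO cells in both states.

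Of the 31 gene lists, the interferon-stimulated genes had the median farthest from that of all genes. All 56 genes of the list were measured, and their median difference was -0.60 against -0.04 over all genes. Their mean signal was 0.38 and 0.53 on the WT arrays and -0.46 and -0.21 on the KO arrays, so both KO arrays lay below both WT arrays. The called members were Xaf1 and Rtp4 (2 lower, none higher), and 21 members (37.5%) were lower at an unadjusted p under 0.05 against 1.67% of all genes, with none higher. Because the floor differed between genotypes, the same counts are given for genes detected on all 4 arrays: 21 of 53 members (39.6%) against 0.669% of such genes. Both KO arrays lay below both WT arrays for 33 of those 53 (62.3%), against 12.3% of all genes detected on the 4 arrays, and 49 of 53 differences were below 0. Only 1 member had an uneven spot and 4 lay in a raised neighbourhood, and the median of the list was still -0.60 with such spots left out. Within slide 1 the median was -0.45, and 46 of the 53 differences were below 0. Leaving out WT replicate 2 reduced the members at an unadjusted p under 0.05 to 10, leaving out KO replicate 1 reduced them to 11, and the median stayed between -0.83 and -0.45 over the 4 fits that left out 1 array. The list was chosen with earlier results of these data known, so its counts describe these arrays and are not a separate test. No member other than Xaf1 and Rtp4 passed the adjusted threshold, so the values that follow are differences that did not pass it singly.

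**Figure D3:**
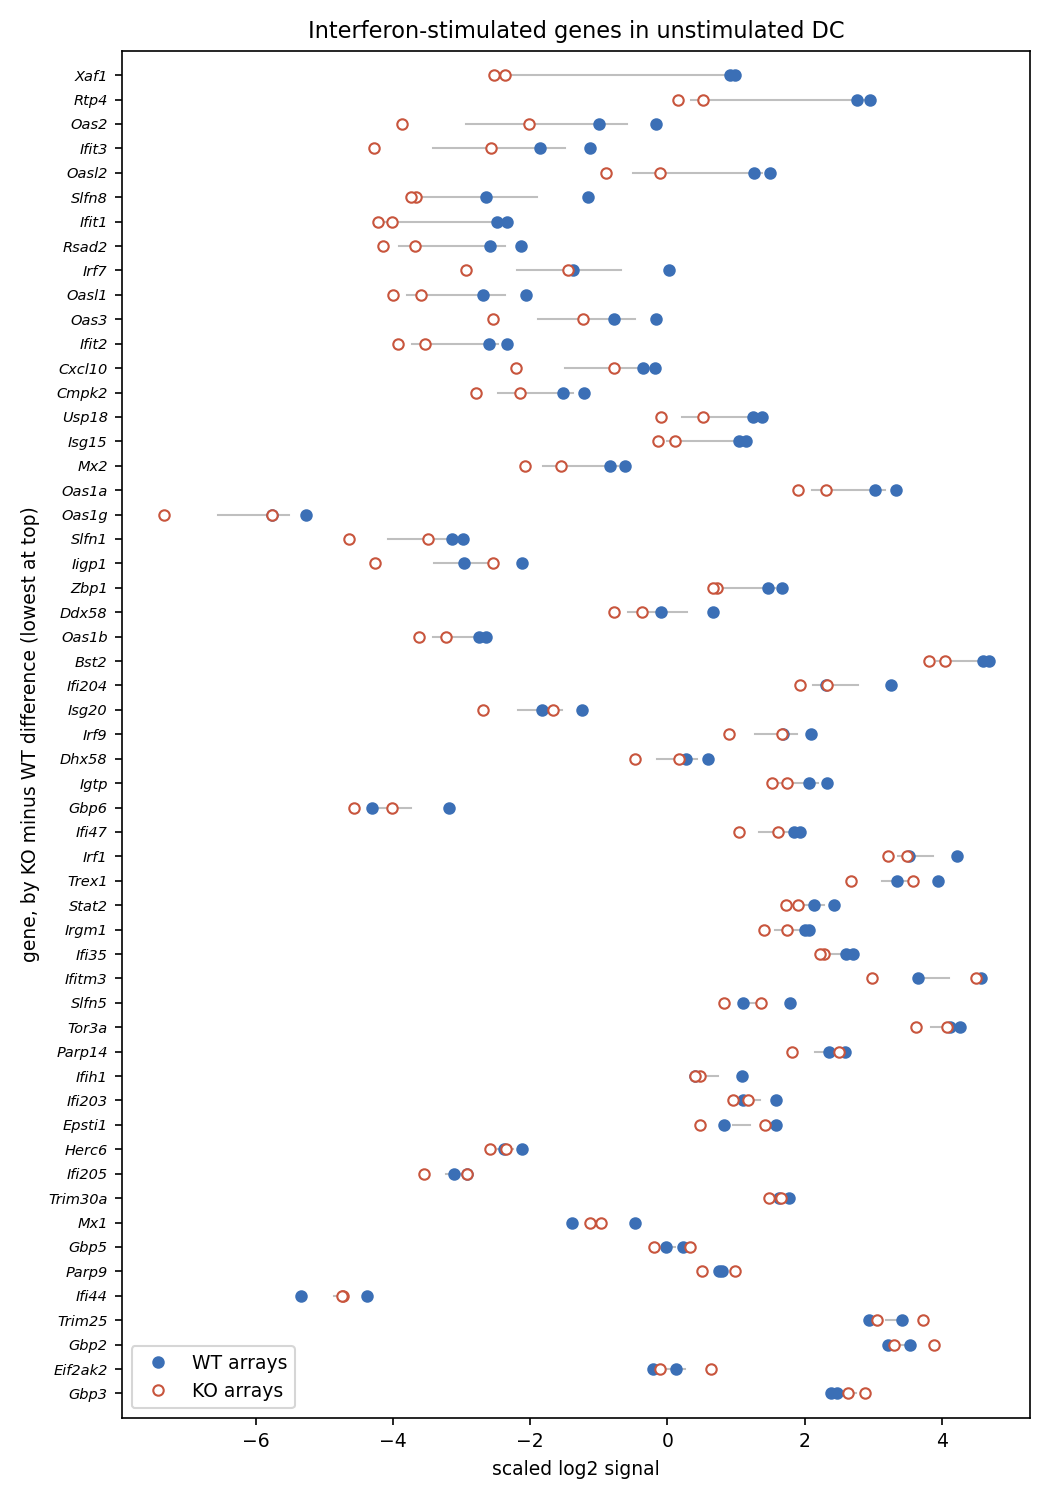
Interferon-stimulated genes in unstimulated DC (55 of the 56). The horizontal axis is the scaled log2 signal and each row is a gene, with the most negative KO minus WT difference at the top; filled blue points are the 2 WT arrays, open red points the 2 KO arrays, and the grey line joins the group means. In 32 rows, most of them in the upper part, both KO points lie to the left of both WT points.

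Among the direct antiviral effectors, the OAS family, which makes the signal that activates RNase L, read lower on both KO arrays in most members. Oas2 read -1.0 and -0.16 in WT and -3.86 and -2.01 in KO cells (difference -2.36 ± 0.61). Oasl2 read 1.26 and 1.49 in WT and -0.89 and -0.10 in KO cells (difference -1.87 ± 0.32, limma adjusted p = 0.157). Oasl1 (-1.42), Oas3 (-1.41), Oas1a (-1.06) and Oas1b (-0.73) also had an unadjusted p under 0.05, and Oas1g (-1.03) did not.

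The Ifit proteins bind foreign RNA and block its translation. Ifit1 was the member closest to the threshold, at -2.34 and -2.48 in WT and -4.01 and -4.21 in KO cells, a difference of -1.70 ± 0.25 with a limma adjusted p of 0.0738. Ifit3 differed by -1.93 and Ifit2 by -1.26. Rsad2, which encodes viperin, read -2.13 and -2.59 in WT and -3.68 and -4.14 in KO cells, a difference of -1.55. In none of these 4 genes did the genotypes overlap. Isg15, a ubiquitin-like modifier, and Usp18, the protease that removes it, both differed by -1.10, as did Cmpk2. Mx2 differed by -1.09 with no overlap, whereas its relative Mx1 differed by -0.12 and its WT arrays lay on either side of both KO arrays.

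Of the sensors and regulators, Irf7, the factor that amplifies interferon production, differed by -1.52, the nucleic acid sensors Zbp1 by -0.87 and Ddx58 by -0.85, and Bst2, which tethers virions to the cell, by -0.71, each with an unadjusted p under 0.05. The sensor Ifih1 differed by -0.31 and did not reach it. Of the members that carry the interferon signal, Stat2 differed by -0.47, Irf9 by -0.61 and Irf1 by -0.52, none at an unadjusted p under 0.05. The guanylate-binding proteins Gbp2 (0.22), Gbp5 (-0.04) and Gbp3 (0.33, the highest member of the list) were not lower to a like degree. Other members, Igtp (-0.56), Ifi47 (-0.55) and Irgm1 (-0.46), lay closer to the median of the list. Cxcl10, a chemokine of the same programme, differed by -1.23 with an unadjusted p of 0.106. Outside the list, the receptor chain Ifnar1 differed by 0.32 and Ifnar2 by -0.24, and Ifnb1, which encodes interferon beta, was not well above background on any of the 4 arrays; these 3 were named after their values were seen.

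After LPS the same list had a median difference of -0.12, and no member was called by limma in KO against WT cells, where 0.0259% of all genes were. Of all genes 0.389% were lower there at an unadjusted p under 0.05, and of the list Xaf1 (-2.83) and Slfn8 (-2.47) were. Slfn8, a member of the Schlafen family, had differed by -1.81 in unstimulated cells. Ifit1 read 5.42 and 5.55 in WT and 5.59 and 5.31 in KO cells after LPS, and Rsad2 read 6.49 and 6.86 in WT and 6.64 and 6.17 in KO cells, and in both genes the arrays of the genotypes overlapped. Oasl1 differed by 0.06 and Oasl2 by -0.01. The change in genotype difference between the states was called for no member (limma, adjusted p under 0.05, against 0.0713% of all genes). Of the 53 members detected on all 4 unstimulated arrays, 7 had an unadjusted p under 0.05 for this change (limma), against 1.53% of all genes. A loss of the difference after LPS was thus not shown for single genes.

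The element shown at the start occurred in the 250 bases before the start of 20 of 41 list members with a promoter in the RefSeq table (48.8%), against 936 of 27025 genes with a promoter (3.46%). Among the members with an unadjusted p under 0.05 that have a promoter there, 8 of 15 held it (53.3%), and among the others 12 of 26 did (46.2%). Xaf1, Oasl2 and Irf7 held no match to these letters in that window. The match is a description of sequence and does not show binding.

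Some markers of other cells were lower in KO cells beside these genes, though none was called. Of 8 measured plasmacytoid DC markers, a type that makes much interferon, 2 (25%) were lower at an unadjusted p under 0.05 against 1.67% of all genes, and these, Irf7 and Bst2, are also interferon-list members. The summed signal of the marker list was 35.9 to 36.5 in WT and 24.7 to 26.1 in KO cells, without overlap. The other 6, with Tcf4 at -0.04, Ccr9 at -0.68 and the highest, Pacsin1, at 0.49, did not reach that threshold. Of the 8 differences, 5 were below 0 and 3 above. Of 12 monocyte markers 2 (16.7%), Ly6c2 (-1.69) and Ly6c1 (-1.40), were lower at that threshold. Ly6c2 read 3.88 and 4.96 in WT and 2.20 and 3.26 in KO cells. The 12 differences split into 6 below and 6 above 0, with Fn1 the highest at 0.53. Their median was -0.11, and 0.40 within slide 1. The summed signal of that list was 85.9 and 213 in WT and 105 and 133 in KO cells, overlapping. Of 10 neutrophil and granulocyte markers 2 (20%), Chi3l3 (-0.73) and Camp (-0.87, not well above background on any array), reached it. The median of that list was -0.40, and Mpo, at 0.78, was its 1 member above 0. Its sums were 90.7 and 138 in WT and 67.8 and 73.3 in KO cells, without overlap. In such bulk samples fewer cells of a type and less RNA per cell cannot be told apart, and the part of other cells in the interferon difference was not tested.

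The question that the design puts to these arrays is which genes depend on miR-155 before stimulation. Published direct targets are messenger RNAs whose pairing with miR-155 has been shown in other systems. Of 60 such genes 56 were measured, none was called, and none had an unadjusted p under 0.05 in either direction (limma). Their median difference was -0.04, equal to that of all genes. Socs1, an inhibitor of cytokine signalling, read 2.40 and 0.48 in WT and 1.99 and 0.71 in KO cells, a difference of -0.09 ± 0.68 in which the spread between arrays exceeded any difference. Inpp5d, the phosphatase SHIP1, was measured more tightly, at 4.29 and 4.66 in WT and 4.38 and 4.52 in KO cells (difference -0.02 ± 0.26). Bach1, a transcriptional repressor, differed by -0.10 and, after LPS, by 0.94. Of the transcription factors on the list, Cebpb differed by -0.21, Sfpi1 (PU.1) by 0.20, Jarid2 by 0.21, Fos by -0.07 and Ets1 by -0.33. The signalling genes Tab2 (0.09), Ikbke (-0.06) and Csf1r (-0.09), the nuclear import gene Kpna1 (0.12) and the endocytosis gene Picalm (0.07) were close to 0. The lowest member was Arg2, a mitochondrial arginase, at -1.45 ± 1.18 with overlapping arrays, and the highest was Myb at 0.72 ± 0.99. After LPS the list had a median of 0.16, with 3 members higher at an unadjusted p under 0.05, against 0.836% of all genes, and none lower. With these standard errors, small differences would not have been detectable on 2 arrays per group.

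**Figure D4:**
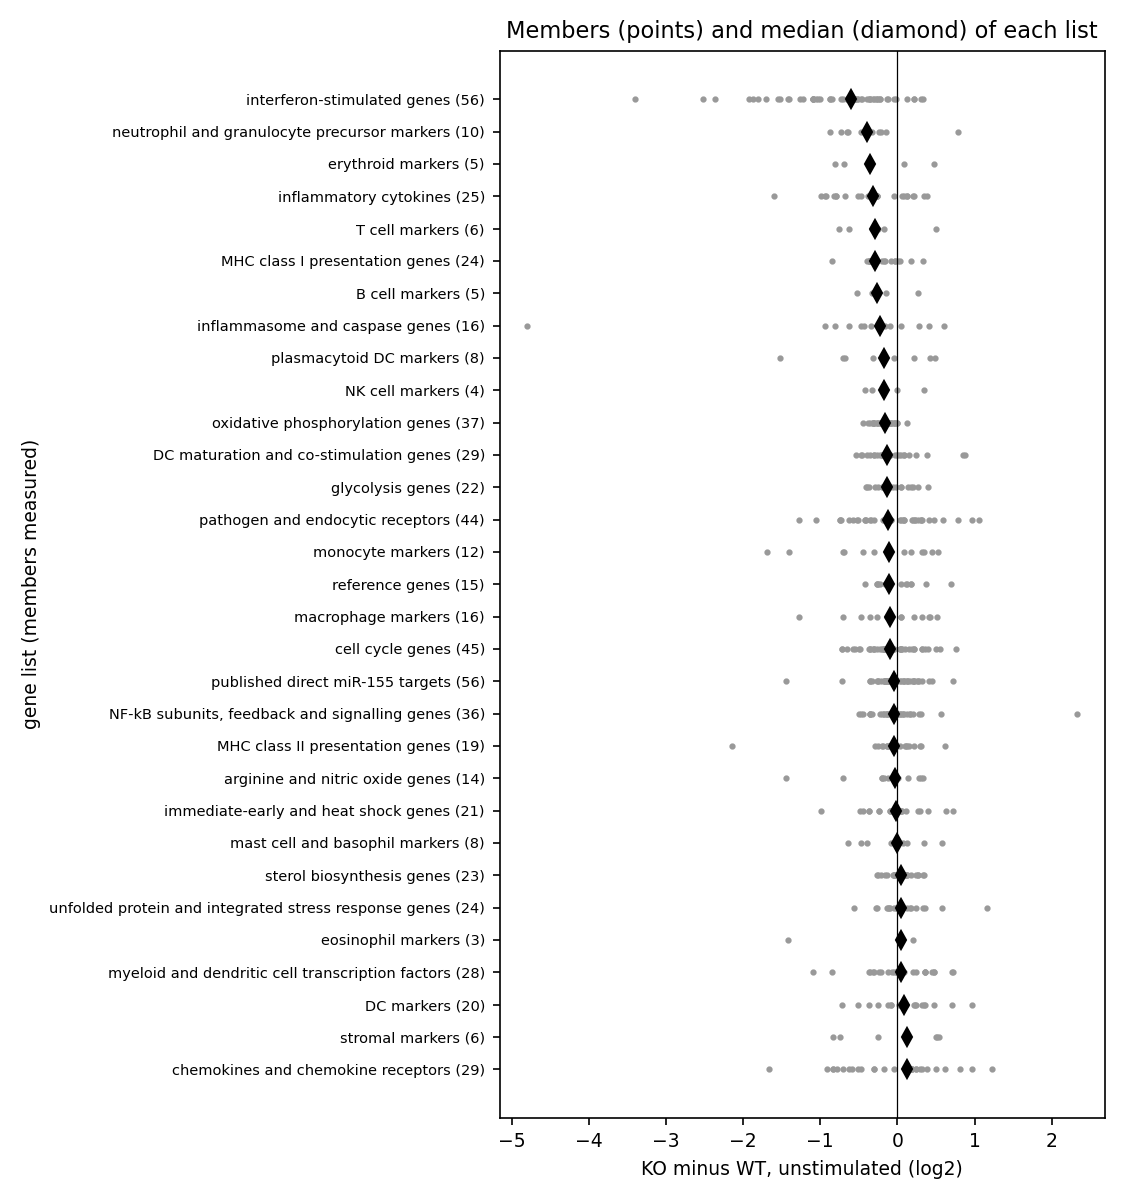
Differences of the members of 31 gene lists in unstimulated DC. Each row is a list, each point a member's KO minus WT log2 difference, the black diamond is the median of the list and the vertical line marks 0; the median of all genes was -0.04. The interferon-stimulated genes have the lowest median, -0.60, and the published miR-155 targets are centred on -0.04.

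No other list had a called member besides Nlrp1a, and the medians of the lists with at least 14 measured genes, the interferon list aside, ran from -0.32 to 0.13. Inflammatory cytokines had the lowest of these, -0.32, and their 2 members at an unadjusted p under 0.05, Il23a (-1.60) and Il12a (-0.99), were not well above background on any of the 4 arrays. Of the cytokines that were detected on all 4, Tnf differed by -0.27, Il1b by -0.47 and Il27 by 0.06. The chemokine list had the highest, 0.13, but -0.34 within slide 1. Its member Ccl5, which draws T cells, read 1.65 and 3.06 in WT and 1.32 and 0.07 in KO cells, a difference of -1.66 with an unadjusted p of 0.0219. Clec4e, a receptor for mycobacterial glycolipid, differed by -0.73, and 1 of 44 pathogen receptors (2.27%) was lower at an unadjusted p under 0.05, close to the 1.67% of all genes. Cell cycle genes (median -0.10, 45 measured), oxidative phosphorylation genes (-0.16, 37 measured), MHC class II genes (-0.04, 19 measured) and NF-kB genes (-0.04, 36 measured) had no member at that threshold. Within slide 1 the cell cycle median was 0.10 and the MHC class II median 0.15, so both changed sign. The NF-kB list holds the largest upward difference of any list, the adaptor Ticam2 at 2.33, which came from a single low WT array (-2.06 and -6.41 in WT, -2.07 and -1.74 in KO cells) and overlapped.

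Detection gave a second view of the same arrays. On both WT arrays and neither KO array, 74 genes (0.480%) were well above background, and 70 of them had uneven spots or raised neighbourhoods. The 4 that did not were Nlrp1a, 4930432K21Rik, AK019700 and Gm4955. AK019700 read -3.48 and -3.26 in WT and -6.0 and -5.60 in KO cells, at least 4.06-fold lower. The largest bounds in this direction, AI646023 (at least 32.1-fold), Lrrc17 (16.9-fold), Ctsr (16.4-fold), AK082037 (14.3-fold) and Spag17 (13.3-fold), all belonged to the screened spots. On both KO arrays and neither WT array, 589 genes (3.82%) were well above background. Of those only 253 had a bound above 1, with a median of 1.19-fold, and the lowest signal well above background was itself lower on the KO arrays (-5.55 and -5.25) than on the WT arrays (-4.60 and -4.29). AK035714 led them with 5.98-fold, followed by NAP114417-1 (2.46-fold), A_52_P541760 (2.43-fold) and Zscan10 (2.06-fold).

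Some genes differed in the same direction in both states, and several of these lay near each other on the genome. Over the 15426 genes, 37 (0.240%) had an unadjusted p under 0.05 with the same sign in both states, 18 lower and 19 higher in KO cells, and 18 more had opposite signs. Of the 37, 10 were well above background on none of the 4 unstimulated arrays. Chromosome 14 held the highest share, 5 of 530 genes (0.943%), and chromosome 11 the highest number, 10 of 1275 (0.784%). All 10 on chromosome 11 started between 70.9 and 86.4 Mb (mm9), limits that are the range of these genes themselves. Of the 1275 tested genes on this chromosome, 290 lay between 70 and 90 Mb. The 10 include Nlrp1a, Xaf1, the Schlafen genes Slfn8 and Slfn9, A_52_P541760, and the chemokine gene Ccl8, which was well above background on no unstimulated array. Slfn9 differed by -2.26 in unstimulated cells and -2.95 after LPS. Within 5 Mb of Nlrp1a, 2 of 176 tested genes were called, Nlrp1a and Xaf1 (over all genes 0.337% were). The window was chosen with earlier results known and centred on Nlrp1a, itself a call. Its count of calls was thus partly fixed in advance and gives no comparison with the share over all genes. In this window 5 genes were higher and 5 lower at an unadjusted p under 0.05, 9.09% differed by over 1 in either direction against 3.6% of all genes, and the median was -0.04. Xaf1 and Slfn8, both among the 10 genes on chromosome 11, are members of the interferon list. Xaf1 lies inside this window, 1.21 Mb from Nlrp1a, and Slfn8 lies outside it, at 11.91 Mb.

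On chromosome 14, 3 of the 37 lay between 69902509 and 70023394 (mm9). AK019700 differed by -2.43 in unstimulated cells and by -3.97 after LPS. Its neighbours Gm16867 and AK038254 were well above background only on the WT LPS arrays, so their differences in unstimulated cells lie in the range where the floors differ. Loss of miR-155 and other genetic differences between the 2 mouse lines cannot be told apart in this design.

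Around the deleted locus, no call with an even spot was made in unstimulated cells. Within 10 Mb of Mir155 on chromosome 16, placed by Mrpl39, 69 genes were tested, the median difference was -0.03, and the single call, AK049026 at -9.32 Mb from the locus, was one of the uneven spots. At an unadjusted p under 0.05, 4 of the 69 were higher and 1 lower, and 7.25% differed by over 1 against 3.6% of all genes. The largest upward difference there, 3.45 ± 1.46 in 4931408A02Rik (named after its values were seen), was not called. This probe read -6.31 and -3.93 in WT and -2.5 and -0.83 in KO cells and differed by 3.1 after LPS. Its spot was uneven on WT replicate 2 (pixel spread 0.31 of the signal). A further probe of the gene, kept by the spot screen, differed by only 0.92 ± 0.42 in unstimulated cells. Cbr1, a carbonyl reductase 8.89 Mb after the locus, read -0.71 and 0.25 in WT and 1.75 and 2.05 in KO cells. It was 4.38-fold higher (difference 2.13 ± 0.36, limma adjusted p = 0.146), 2.28 higher within slide 1 and 2.27 higher after LPS. It did not pass the threshold over all genes in either state. Mrpl39 differed by -0.03 in unstimulated cells and by -4.70 after LPS, where the WT arrays read 1.98 and 2.57 and the KO arrays -2.51 and -2.35. The change between the states was called (-4.67 ± 0.45, limma adjusted p = 0.0392), and all 4 unstimulated arrays were at the level of the WT LPS arrays.

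**Figure D5:**
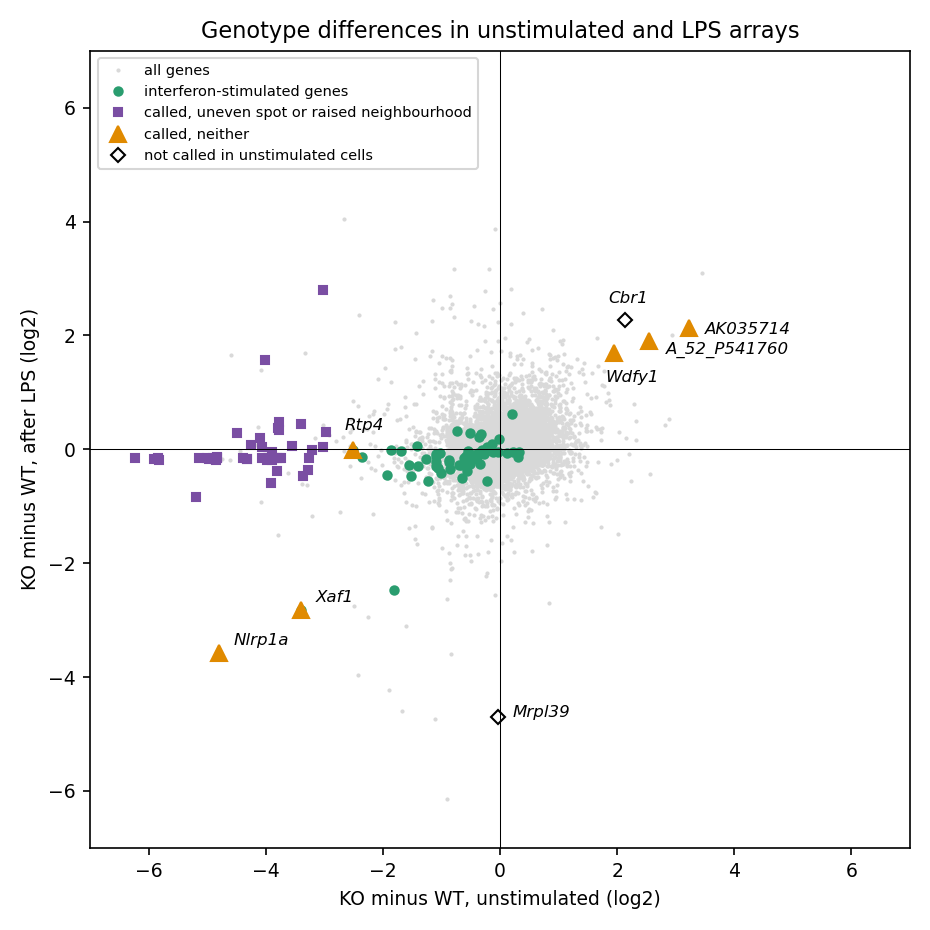
Genotype difference in unstimulated cells (horizontal axis, KO minus WT, log2) against the difference after LPS (vertical axis, KO minus WT, log2). Grey points are all genes, green points the interferon-stimulated genes, purple squares the 46 calls with an uneven spot or raised neighbourhood, orange triangles the other 6 calls and open diamonds Cbr1 and Mrpl39, which were not called in unstimulated cells. Nlrp1a and Xaf1 are low on both axes, most purple squares and Rtp4 are low on the horizontal axis only, and Mrpl39 is low on the vertical axis only.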

How the data were processed

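RNA of sorted DC was hybridised to 1-colour (Cy3) Agilent arrays with probes of 60 bases. Per the file headers, Agilent Feature Extraction 10.5.1.1 gave, for each spot, a background-subtracted, spatially detrended signal intensity, which the authors deposited unscaled, with detection flags and mm9 probe positions. The deposited series table holds log2 values that equal this signal minus a constant per array for 99.8% of probes; it served as an alternative, and how its constant was chosen is not given in the sources used here.

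Here, log2 signal was centred on the 75th percentile of each array. Control and outlying spots were left out. A probe was kept (23766 were) where some group had it well above background on its 2 arrays, and the brightest probe stood for each gene (15426 genes; 5688 had several probes). A RefSeq accession came with 12124 of the chosen probes, and 11981 of these were in the RefSeq gene table; genes keep the file's names. limma 3.58.1 (R 4.3.3) was fitted with 4 group means over all 8 arrays (4 residual and 2.87 prior degrees of freedom), two-sided, with Benjamini-Hochberg adjustment over all genes; 71 genes have a missing value. The LPS contrast uses other arrays but shares the estimate of the spread. Scripts were tested on simulated data.

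The genotype comparison and the 31 gene lists (739 entries) were chosen with earlier results of these data known. Genes named are the 20 largest calls in each direction, listed miR-155 targets, called or extreme list members, the 10 largest detection bounds in each direction and calls in both windows; others were named after their values were seen. The spot screens were devised after the called spots had been looked at, and their limits were set while viewing them; the fit without them remains the main one. A search for miR-155 seed matches in transcripts was not run. Some genes met the naming rule but are not reported here.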

Additional observations from a re-analysis of the deposited data

Results flagged for a closer look

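In 11 genes the genotype difference itself differed between unstimulated and LPS-treated cells (limma interaction contrast, adjusted p from 0.0392 to 0.0440, n = 2 arrays per group, except that Lrrc17 and ENSMUST00000103376 had 1 WT unstimulated array); values are the difference after LPS minus that in unstimulated cells on the log2 scale. In 9 genes it was positive: Lrrc17 6.07, Hmx2 5.82, AK082037 5.74, ENSMUST00000103376 5.70, Spag17 5.65, NAP100574-001 4.70, AK089089 4.16, 1190003K10Rik 3.71 and AK034179 3.62. All 9 are among the 46 called spots that were uneven or in raised neighbourhoods on unstimulated arrays, and Hmx2 also differed by 2.79 after LPS. A second Hmx2 probe, well above background on none of the 4 unstimulated arrays, differed by -0.91 there and by 0.16 after LPS. In 2 genes with even spots the interaction value was negative: Fam190a at -5.23, which was well above background only on the WT LPS arrays, and Mrpl39 at -4.67.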

How the results depend on the processing

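Of 12 counts and medians compared over the alternatives, only the miR-155 target median (-0.04) changed sign; the cause of the moves below was not tested. The 52 calls (3 higher, 49 lower) became 2 (0 higher, 2 lower) with normexp background correction, 1 (0 and 1) for probes detected on all 4 unstimulated arrays, 7 (0 and 7) with only the unstimulated arrays, 16 (1 and 15) with trended robust moderation, 5 (0 and 5) with slide as a block, 0 within slide 1 (limma; 277 genes at an unadjusted p under 0.05), and 81 (78 lower) with all probes fitted one by one; quantile normalization gave 55, with 6 higher. The spot screens, added after seeing the data, gave 2 (0 higher, 2 lower) without uneven spots, 33 (31 lower) without raised neighbourhoods and 0 without either (limma; 242 at an unadjusted p under 0.05). Leaving out 1 array gave 0 to 34 calls (0 to 3 higher, 0 to 31 lower): 34 without WT replicate 1, 27 without WT replicate 2, 0 without KO replicate 1 (379 at an unadjusted p under 0.05) and 11 without KO replicate 2. With no filter on dim probes 25.3% of genes passed an unadjusted p under 0.05, and 58 were called.

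The interferon median was -0.39 with normexp and -0.83 to -0.45 with 1 array left out. Its 2 called members became 1 for probes detected on all 4 arrays or without uneven spots, and 0 with only unstimulated arrays, slide as a block, within slide 1 or in the full screen; leaving out 1 array gave 0 to 1. Members at an unadjusted p under 0.05 were 11 within slide 1 and 10 to 19 with 1 array left out. The miR-155 target median was 0.02 with quantile normalization, 0.04 with normexp and -0.06 to 0.09 with 1 array left out. The single Mir155 window call became 0 in a 5 Mb window, with normexp, with the filter on all 4 arrays, with only unstimulated arrays, trended moderation, slide as a block, within slide 1 or in any spot screen (0 to 1 with 1 array left out). The 2 Nlrp1a window calls became 1 with quantile normalization, normexp, the filter on all 4 arrays, only unstimulated arrays, trended moderation or without uneven spots, and 0 with slide as a block, within slide 1 or in the full screen (0 to 1 with 1 array left out).

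Replicate numbers share no stated mouse or batch and only 2 pairs exist. The correlation of deviations was 0.498 between WT and KO unstimulated arrays and 0.692 between WT and KO LPS arrays. Between unstimulated and LPS groups it was 0.013 to 0.327. The main fit does not use this pairing. With replicate number as a block, 576 genes had an unadjusted p under 0.05 in unstimulated cells (limma), against 411 without it. The replicate block gave 47 calls, 1 call after LPS (4 without it) and 0 interaction calls (11 without it; 322 at an unadjusted p under 0.05). Slide as a block gave 0 LPS calls (232 at an unadjusted p under 0.05) and 0 interaction calls (260). Interaction calls were 0 without uneven spots (141) and in the full screen (105). Among the single genes and other lists, 202 values lost the threshold, 1 gained it and 201 moved by more than the spread between arrays.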
